A study of Mus musculus with 157 samples.

Results

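Monosomal mRNA of activated B cells was compared between cells damaged with etoposide and cells given an inhibitor of the kinase ATM before the etoposide. The comparison takes the fractions 4 to 7 of the sucrose gradients, those that held single ribosomes, from every gradient of both treatments, which are 32 of the 157 samples of the series. B cells from spleens of C57BL/6Babr mice were activated with lipopolysaccharide (LPS, 10 µg/ml). In the group called LPS+ET they had 48 h of LPS and 20 µM etoposide for 4 h. In the group called LPS+ET+KU they had 47 h of LPS, then 10 µM of KU55933 for 1 h, and then the same etoposide treatment. Each group had 4 gradients, 1 for each of the tags LUL15, LUL16, LUL17 and LUL18 in the column names. The labels do not say what a tag stands for, and gradients that share a tag are here called a pool. A further 4 gradients of cells with 48 h of LPS and no etoposide (LPS) were fitted with both groups. All 3 groups carried the LPS stimulus, and no group had KU55933 without etoposide, so an action of the inhibitor on undamaged cells cannot be told apart from its action on the damage response. Values are given as CPM, the counts of a gene scaled to a fixed total in every fraction sample, averaged over fractions 4 to 7 of a gradient.

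Etoposide poisons topoisomerase II, so that cut DNA is not rejoined and double-strand breaks remain. ATM is the kinase that senses such breaks and activates the transcription factor p53, which drives genes of cell cycle arrest and apoptosis and the gene of its own inhibitor, Mdm2. KU55933 blocks the kinase activity of ATM. A sucrose gradient parts mRNAs by the number of ribosomes they carry, and the monosome is an mRNA with a single ribosome, often a poorly translated, a newly engaged or a short mRNA. In B cells the LPS receptor also switches on NF-kB and interferon-response genes.

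The 32 fraction samples held 32104 to 2158545 counts (median 613754.5), and 2 of them held under 100000. Summed over fractions 4 to 7, the LPS+ET gradients held 1444955, 1857161, 1397768 and 1519608 counts in pools LUL15 to LUL18, and the LPS+ET+KU gradients held 2702618, 6102279, 4844000 and 4527621. The inhibitor sample was the deeper one in 16 of 16 pairs of the same pool and fraction, by 1.06 to 17.4 times (median 3.83). When the deeper sample of each pair was thinned to the total of the other, 59 of the 66 genes called below were still called and 66 of 66 kept their direction. That fit called 74 genes, 46 higher and 28 lower. Equal RNA concentrations entered the libraries, so a CPM is a share of a fraction's mRNA and not an amount, and fewer cells of a type and less RNA per cell cannot be told apart. Of 7 B cell marker genes 6 passed the filter on low values, with a summed level of 5836 to 8599 CPM in LPS+ET and 7106 to 9387 CPM in LPS+ET+KU, while Pax5 stayed near 0. Summed markers of myeloid cells lay at 573 to 680 CPM in LPS+ET and 571 to 718 CPM in LPS+ET+KU, with Csf3r at 0. Those of T and NK cells lay at 87.1 to 222 and 84.7 to 321 CPM with Cd3e and Gata3 at 0, those of dendritic cells at 44.0 to 86.5 and 67.2 to 96.4 CPM, and those of erythroid cells at 14.0 to 49.6 and 12.7 to 72.4 CPM with Car1 and Slc4a1 at 0. Single genes made up much of these sums. In LPS+ET and LPS+ET+KU, the myeloid marker Cybb averaged 310 and 292 CPM and the T and NK marker Lck 99.2 and 124 CPM. The dendritic marker Bst2, also on the interferon-response list, averaged 52.0 and 65.9 CPM. Mitochondrially encoded mRNAs took 7.21%, 2.65%, 7.39% and 10.5% of the CPM in the LPS+ET gradients and 6.46%, 0.731%, 9.87% and 9.92% in the LPS+ET+KU gradients, lowest in pool LUL16 in both.

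With ATM inhibited before etoposide, some mRNAs of interferon-response proteins, chemokines, chemokine receptors and the integrated stress response were higher in monosomes, among them Ifit1, Cxcl10, Ccl5, Ccr7 and Atf4, and a smaller group that held Mdm2, Egr1, Glipr1, Irf4 and Rrm2 was lower. Of 8824 genes tested, 66 were called at an adjusted p under 0.01 (0.748%), 47 of them higher with the inhibitor (0.533%) and 19 lower (0.215%), by limma with the pool as a block and Benjamini-Hochberg adjustment. The 47 rises had a median log2 difference of 1.02 and ran from 0.54 to 3.46, while the 19 falls had a median of -1.05 and ran from -6.18 to -0.71. The median over all tested genes was 0.02, and 52.3% of them were higher with the inhibitor. All 66 called genes moved the same way in all 4 pools, which a fit with the pool as a block favours and which over all tested genes held for 16.3% upwards and 14.9% downwards, and the 4 gradients of one treatment lay clear of the 4 of the other for 35 of the rises and 16 of the falls. Over all tested genes, the inhibitor gradients lay entirely above in 3.08% and entirely below in 3.33%. The number of calls depended on the pairing of the gradients, since without the pool block 2 genes were called, Ccl5 and Cdh23. Leaving out a gradient left 17 to 41 calls, and 16 of the 66 genes were called each time, among them Ifit1, Ifit2, Oasl1, Ccl5, Ccr7, Neurl3, Atf4, Egr1, Sh3tc1 and Cdh23, while Mdm2, Irf4 and Ppp1r15a were called in 1 of these 8 fits and Nkiras2, H2-DMa, Dcxr, Rrm2, Nfic, Mlec, S100a6 and Fcrla in none. edgeR on the summed counts with the same block called 499 genes (5.66%), 223 higher (2.53%) and 276 lower (3.13%), and these held 43 of the 47 rises and 19 of the 19 falls.

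**Figure D1:**
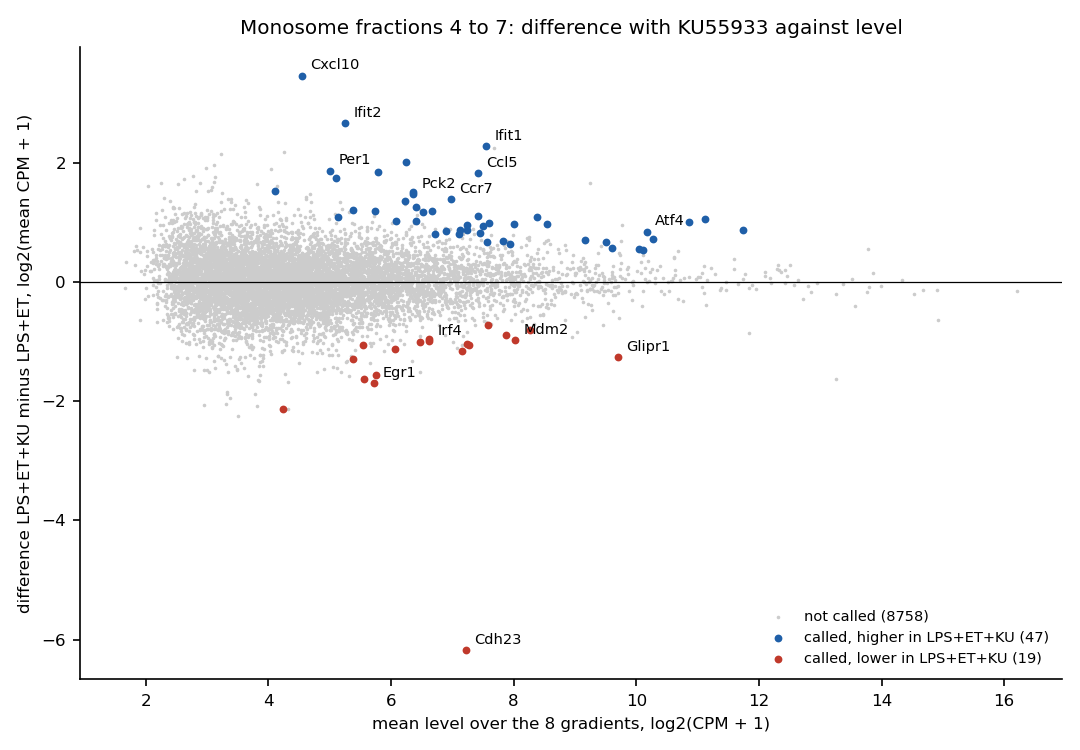
Each point is a tested gene, with its mean level in the 8 gradients on the x axis, as log2 (CPM + 1), and its log2 difference, LPS+ET+KU minus LPS+ET, on the y axis, called rises in blue and called falls in red. The 47 rises reach 3.46 at Cxcl10 and the 19 falls reach -6.18 at Cdh23, and most other genes lie around 0.

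The 3 largest rises in monosomes with ATM inhibited were interferon-response mRNAs. Of 50 listed genes 38 were tested, 4 were called higher (Ifit2, Ifit1, Oasl1 and Cxcl10) and none lower by limma, 34 of the 38 had a positive difference whether called or not, and the list median was 0.52 against 0.02 for all tested genes. edgeR called 12 of the 38 higher and 0 lower. Cxcl10 passed the filter on low values only through its inhibitor gradients, as described with the chemokines below. Pool by pool the list median was 0.65, 0.24, 0.72 and 0.76 in LUL15 to LUL18, lowest in LUL16, the pool with the lowest share of mitochondrially encoded mRNAs. Ifit1 is an antiviral protein that binds viral RNA lacking the cap marks of host mRNA. Its mRNA (ENSMUSG00000034459, chromosome 19, 34640870 to 34650008, plus strand) stood at 55.3, 56.1, 70.9 and 52.2 CPM in the LPS+ET gradients of pools LUL15 to LUL18 and at 437, 131, 382 and 307 CPM in the LPS+ET+KU gradients. Every inhibitor gradient was above every etoposide gradient, with the smallest rise in pool LUL16. The means were 58.6 ± 8.32 and 314 ± 133 CPM (SD, n = 4), a 5.36-fold difference, and the log2 difference was 2.28 ± 0.25 (SE, adjusted p = 0.00019, limma). Without etoposide, LPS gradients held 48.4 ± 22 CPM.

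Ifit2, a relative of Ifit1 encoded beside it (ENSMUSG00000045932, chromosome 19, 34550693 to 34576418), stood at 10.5, 7.22, 8.37 and 8.90 CPM after etoposide and at 71.0, 28.9, 90.5 and 72.0 CPM with the inhibitor. The groups did not overlap, and the log2 difference was 2.67 ± 0.26 (SE, adjusted p = 4.83e-05, limma). LPS gradients held 26.9 ± 11.2 CPM of it, between the other two groups. Oasl1, a protein of the oligoadenylate synthetase family that restrains interferon production, rose from 52.0, 61.9, 18.9 and 39.7 CPM to 162, 122, 68.6 and 125 CPM. Its log2 difference was 1.51 ± 0.17 (SE, adjusted p = 0.00019, limma), again without overlap, although the lowest inhibitor gradient stood close to the highest etoposide gradient. Ly6e, an interferon-induced surface protein outside the rule for named genes and chosen after its values were seen, rose from 926.7 ± 210.8 to 1541 ± 358 CPM, with overlapping groups and an LPS level of 2221 CPM.

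The promoters of these genes were searched for the core of the interferon-stimulated response element, the site bound by interferon regulatory factors and the ISGF3 complex, written as GAAANNGAA on either strand. The windows were the RefSeq sequences of GRCm38.p6 from 250 bases before to 50 bases after a gene's start, found for 6394 of the tested genes by symbol. The core occurred in 2812 of 32851 windows of all genes (8.56%). Counted by gene, with a match in any of its windows, it occurred in 8.77% of the tested genes with a window. Among the 29 tested interferon-response genes with a window, 18 held it (62.1%). The stretches below come from list members that limma or edgeR called higher and whose windows held the core, so they were chosen by these values. Other such matches, of Stat2, Gbp5, Gbp7 and Ifit3, are not shown. Capitals mark the matched letters or, for a match on the opposite strand, their reverse complement, with overlapping matches merged, and each stretch is written 5′ to 3′ on the strand of its gene. Isg15, Rsad2, Gbp2 and Ifit3 are further members of the list, called higher by edgeR and not by limma.
Ifit1, chr19:34640765-34640828, plus strand: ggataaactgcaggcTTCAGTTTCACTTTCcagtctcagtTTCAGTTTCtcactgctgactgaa
Cxcl10, chr5:92349079-92349117, minus strand: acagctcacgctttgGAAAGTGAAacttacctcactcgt
Isg15, chr4:156200861-156200911, minus strand: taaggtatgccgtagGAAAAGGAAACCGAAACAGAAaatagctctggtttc
Rsad2, chr12:26456548-26456586, minus strand: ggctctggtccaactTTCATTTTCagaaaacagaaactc
Gbp2, chr3:142620590-142620628, plus strand: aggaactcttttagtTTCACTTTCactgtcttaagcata
Ifit3, chr19:34583393-34583450, plus strand: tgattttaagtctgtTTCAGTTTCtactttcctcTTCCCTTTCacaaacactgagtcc
The Ifit1 window held 3 matches, between 109 and 84 bases before the start, and the Cxcl10 window held 1, at 213 bases before it. The Isg15 window held 3 overlapping matches between 78 and 66 bases before the start. The windows of Ifit2 and Oasl1 held no match to these letters, which says nothing of sites elsewhere. Of the 11 interferon-response genes with a window that limma or edgeR called higher, 9 held the core. A match of letters is a description and not a measured binding site.

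Chemokines and their receptors guide lymphocytes between the zones of lymphoid tissue. Of 36 listed chemokine and cytokine genes 21 were tested, 4 rose (Ccl5, Ccr7, Ccrl2 and Cxcl10) and none fell by limma, 17 had a positive difference, and the list median was 0.38. edgeR called 6 higher and 0 lower. Cxcl10 draws T cells through the receptor Cxcr3 (ENSMUSG00000034855, chromosome 5, 92346637 to 92348888, minus strand), and its mRNA was nearly absent after etoposide, at 2.71, 1.90, 3.67 and 0.731 CPM, which rest on 5, 5, 7 and 1 counts. With the inhibitor it stood at 63.9, 7.00, 58.5 and 40.9 CPM, from 174, 50, 291 and 208 counts. All 4 inhibitor gradients were above all etoposide gradients, with pool LUL16 far below the other three. The log2 difference of 3.46 ± 0.47 (SE, adjusted p = 0.00101, limma) was the largest rise in monosomes, and it is on the scale of log2 (CPM + 1), which understates the fold of so low a gene. Cxcl10 was tested only because its inhibitor gradients were high. Every LPS+ET gradient and the LPS gradients of LUL16, LUL17 and LUL18 lay under the 5 CPM of the filter. The filter thus favoured a rise of this gene in advance.

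Ccl5, a chemokine for T cells and monocytes (ENSMUSG00000035042, chromosome 11, 83525777 to 83530517, minus strand), held 90.6, 89.9, 52.4 and 67.6 CPM after etoposide and 301, 237, 236 and 288 CPM with the inhibitor. Every inhibitor gradient was at least as high as 236 CPM and none of etoposide alone above 90.6 CPM, and the means rose from 75.1 ± 18.5 to 266 ± 33.8 CPM (SD, n = 4), a 3.54-fold difference with an adjusted p of 1.62e-05 (limma). LPS gradients held 57.1 ± 12.2 CPM of it. Ccr7, the receptor that takes B cells towards the T cell zone, stood at 57.8, 102, 58.2 and 60.7 CPM after etoposide and at 175, 192, 168 and 184 CPM with the inhibitor, without overlap. Its log2 difference was 1.39 ± 0.18 (SE, adjusted p = 0.000553, limma). Ccrl2, a chemerin-binding receptor that does not signal by itself, rose from 28.7 ± 4.88 to 121 ± 31.3 CPM, with gradients of 23.98 to 34.7 against 78.9 to 145 CPM and a log2 difference of 2.01 ± 0.26 (SE, adjusted p = 0.000675, limma).

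The integrated stress response lowers general translation through phosphorylation of eIF2alpha while favouring the mRNA of the transcription factor Atf4. Of 34 listed genes 28 were tested, 3 rose (Atf4, Pck2 and Ppp1r15a) and none fell by limma, 21 had a positive difference, and the median was 0.61. edgeR called 10 higher and 2 lower. The list median was 0.60, 0.43, 0.53 and 0.49 in pools LUL15 to LUL18. Atf4 (ENSMUSG00000042406, chromosome 15, 80255183 to 80257539, plus strand) stood at 746, 943, 739 and 847 CPM after etoposide and at 1379.9, 1816, 1509.8 and 1225 CPM with the inhibitor. All inhibitor gradients were above all etoposide gradients, and the LPS level of 1356 ± 109 CPM lay close to the inhibitor mean of 1482 ± 251 CPM. The log2 difference was 0.85 ± 0.10 (SE, adjusted p = 0.00019, limma).

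Pck2, the mitochondrial phosphoenolpyruvate carboxykinase and a target of Atf4, held 32.6, 76.9, 38.5 and 24.4 CPM after etoposide and 96.7, 208, 86.2 and 88.7 CPM with the inhibitor. Pool LUL16 was the highest in both groups, and the log2 difference was 1.48 ± 0.20 (SE, adjusted p = 0.00101, limma). Ppp1r15a, the phosphatase subunit that reverses eIF2alpha phosphorylation, rose from 59.9 ± 13.4 to 141 ± 37.3 CPM, with gradients of 45.1 to 77.1 against 86.3 to 169.9 CPM. Its call was close to the threshold (adjusted p = 0.00952, limma), and unlike Atf4 its LPS level was the lowest of the 3 treatments, at 27.4 ± 13.8 CPM. The C/EBP-ATF response element, bound by Atf4 with its partners and searched as TGATGNAA after the values were known, occurred in 1304 of 32851 windows (3.97%). Counted by gene, it occurred in 2.75% of the tested genes with a window and in 6 of the 23 tested stress-response genes with a window (26.1%). Of the 3 stress-response genes that limma called higher, 1 held it, Pck2. The windows of Atf4 and Ppp1r15a held no match, which says nothing of sites elsewhere. Of the 9 with a window that limma or edgeR called higher, 3 held it. Chac1, another target of Atf4 on the list, was called higher by edgeR (adjusted p = 0.00128) and not by limma (adjusted p = 0.0108). The match of Pck2 and that of Chac1 are shown with the matched letters in capitals.
Pck2, chr14:55540148-55540185, plus strand: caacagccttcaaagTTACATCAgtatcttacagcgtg
Chac1, chr2:119351034-119351071, plus strand: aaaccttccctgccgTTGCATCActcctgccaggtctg
Both matches are on the strand opposite to the gene, at 103 bases before the start of Pck2 and at 193 bases before that of Chac1.

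Antigen presentation genes held 2 calls by limma, both of MHC class II. Of 11 MHC class II genes, all tested, 2 rose, against 0.533% of all tested genes. They were H2-Ob and H2-DMa, which encode partners of the peptide-loading step. Of the 11 genes, 10 had a positive difference and the median was 0.44. In all 4 pools 8 of them were higher (72.7%), against 16.3% of all tested genes. H2-Ob stood at 87.8, 183, 82.5 and 82.4 CPM after etoposide and at 179, 363, 171 and 213 CPM with the inhibitor. The groups overlapped, with pool LUL16 the highest in both, and within each pool the inhibitor gradient was the higher one (adjusted p = 0.00549, limma). H2-DMa rose in the same way, from 54.99 to 171 CPM after etoposide to 141 to 309.9 CPM with the inhibitor. Of 16 tested MHC class I genes none was called by limma or by edgeR, and their median was 0.33 with 14 positive. By limma 8 of them had an unadjusted p under 0.05, against 1466 of all 8824 tested genes.

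Other large rises did not belong to these groups. Per1, a repressor of the circadian clock, stood at 10.7, 24.9, 6.47 and 9.96 CPM after etoposide and at 53.4, 82.6, 33.8 and 26.96 CPM with the inhibitor. Its groups did not overlap, and the inhibitor mean of 49.2 ± 24.9 CPM was near the LPS mean of 46.3 CPM. Neurl3, a ubiquitin ligase of the neuralized family, rose from 23.8 to 84.8 CPM (log2 difference 1.84 ± 0.21 SE, adjusted p = 0.00019, limma). Nkiras2, an inhibitor of NF-kB signalling, rose from 7.95 ± 1.69 to 24.5 ± 1.84 CPM, and the lincRNA AC123702.1 from 14.4 to 52.5 CPM. The counted site of Nkiras2 lay in an intron, 3727 bases from the annotated end of its transcript. Eif1, a factor of start codon selection, was the 1 member called by limma among 44 tested translation initiation genes, of which edgeR called 1 higher and 1 lower, at 503, 709.7, 535 and 489 CPM against 825, 1061, 949.6 and 719 CPM (log2 difference 0.67 ± 0.10 SE, adjusted p = 0.00203, limma), and the median of its list was 0.00.

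Targets of p53 were on the lower side in monosomes when ATM was inhibited. Of 46 listed p53 targets 38 were tested, 2 fell (Mdm2 and Dcxr), none rose by limma, 6 had a positive difference and 21 were lower in all 4 pools (55.3%, against 14.9% of all tested genes), and the median was -0.44. edgeR called 13 lower and 0 higher. The most negative members, Ddit4l and Ppp1r13l, passed the filter on low values through the etoposide gradients, where they averaged 10.7 and 10.4 CPM. With LPS they averaged 0 and 2.12 CPM and with the inhibitor 3.68 and 3.04 CPM. The filter thus favoured a fall of such genes, and the list values without them were not computed. The list median was -0.38, -0.79, -0.32 and -0.42 in pools LUL15 to LUL18, largest in size in LUL16. The median difference between LPS+ET and LPS for the same genes was 2.00, a contrast that shares the etoposide gradients with the one described here. Mdm2, the ubiquitin ligase that degrades p53 (ENSMUSG00000020184, chromosome 10, 117688887 to 117710757, minus strand), stood at 479.8, 298, 297 and 307 CPM after etoposide and at 205, 133, 177 and 177 CPM with the inhibitor. All inhibitor gradients were below all etoposide gradients, but above the LPS mean of 88.3 ± 21.1 CPM. The log2 difference was -0.98 ± 0.17 (SE, adjusted p = 0.00566, limma).

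Dcxr, a carbonyl reductase of sugar metabolism, fell from 230.2, 179, 211 and 199 CPM to 131, 64.5, 98.5 and 109 CPM, without overlap, and LPS gradients held a mean of 28.04 CPM. Cdkn1a, the p53-driven inhibitor of cyclin-dependent kinases, was not called. It averaged 391 ± 52.5 CPM after etoposide and 299 ± 70.9 CPM with the inhibitor, against 56.2 CPM with LPS, and its log2 difference of -0.41 ± 0.26 (SE) had an adjusted p of 0.491 (limma). Among 25 tested genes of DNA damage kinases and their partners the median was -0.25, 9 were positive, and Mdm2 and Tipin were called lower by limma, while edgeR called 1 higher and 6 lower. Tipin, a replication fork protein, stood at 591, 361, 292 and 319 CPM after etoposide and at 343, 231, 139.8 and 192 CPM with the inhibitor, with overlapping groups. Rrm2, a subunit of ribonucleotide reductase, fell from 242, 212, 204 and 146 CPM to 140.5, 117, 73.6 and 67.5 CPM without overlap (log2 difference -1.05 ± 0.17 SE, adjusted p = 0.00447, limma). It was the single call by limma among 46 tested DNA replication genes, whose median was -0.07 and of which edgeR called 1 higher and 1 lower.

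Several transcription factors were lower with the inhibitor. Egr1, an immediate early factor (ENSMUSG00000038418), stood at 132, 64.2, 68.0 and 57.7 CPM after etoposide and at 35.2, 17.96, 20.8 and 20.0 CPM with the inhibitor. Pool LUL15 was the highest in both groups, the groups did not overlap, and the inhibitor mean of 23.5 ± 7.92 CPM lay below the LPS mean of 52.4 ± 18.7 CPM. The log2 difference was -1.70 ± 0.21 (SE, adjusted p = 0.00043, limma), while the median of the 24 tested immediate early genes was 0.08 and limma called no other. edgeR called 3 of these genes higher and 1 lower. Egr2, a relative of Egr1, did not pass the filter on low values and was not tested, at 5.62 ± 2.43 CPM after etoposide and 0.492 ± 0.384 CPM with the inhibitor, lower in all 4 pools without overlap. Irf4, which drives plasma cell differentiation (chromosome 13, 30749225 to 30766926), fell from 127, 163, 119 and 112 CPM to 60.3, 61.2, 73.5 and 62.4 CPM without overlap. It was the 1 call by limma among 19 tested B cell transcription factors, of which edgeR called 1 higher and 1 lower, with a log2 difference of -0.99 ± 0.16 (SE, adjusted p = 0.00369, limma). Nfatc1, a calcium-regulated factor, fell from 57.4 ± 5.28 to 23.6 ± 6.13 CPM, and Nfic, of the nuclear factor I family, from 70.4 to 21.6 CPM.

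Glipr1, a secreted and membrane protein described as a p53 target, was the most abundant of the falls (ENSMUSG00000056888, chromosome 10, 111985447 to 112002630, minus strand). It stood at 1199.9, 903, 1219 and 1229.9 CPM after etoposide and at 655, 191, 629.7 and 636 CPM with the inhibitor, so that pool LUL16 was the lowest in both groups and the groups lay apart. The log2 difference was -1.25 ± 0.19 (SE, adjusted p = 0.00474, limma). Sh3tc1 fell from 79.5 to 25.95 CPM (adjusted p = 0.000465, limma), and Abhd4, a lipid hydrolase, from 196 to 87.9 CPM, above its LPS mean of 26.7 CPM. Otud4, a deubiquitinase, fell from 90.3 to 41.5 CPM, Mlec, a lectin of the endoplasmic reticulum, from 62.1 to 29.2 CPM, and S100a6, a calcium-binding protein, from 117 to 58.2 CPM. 1700003M07Rik, with a log2 difference of -2.14, had under 20 counts in a gradient of its higher group and is not described further.

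**Figure D2:**
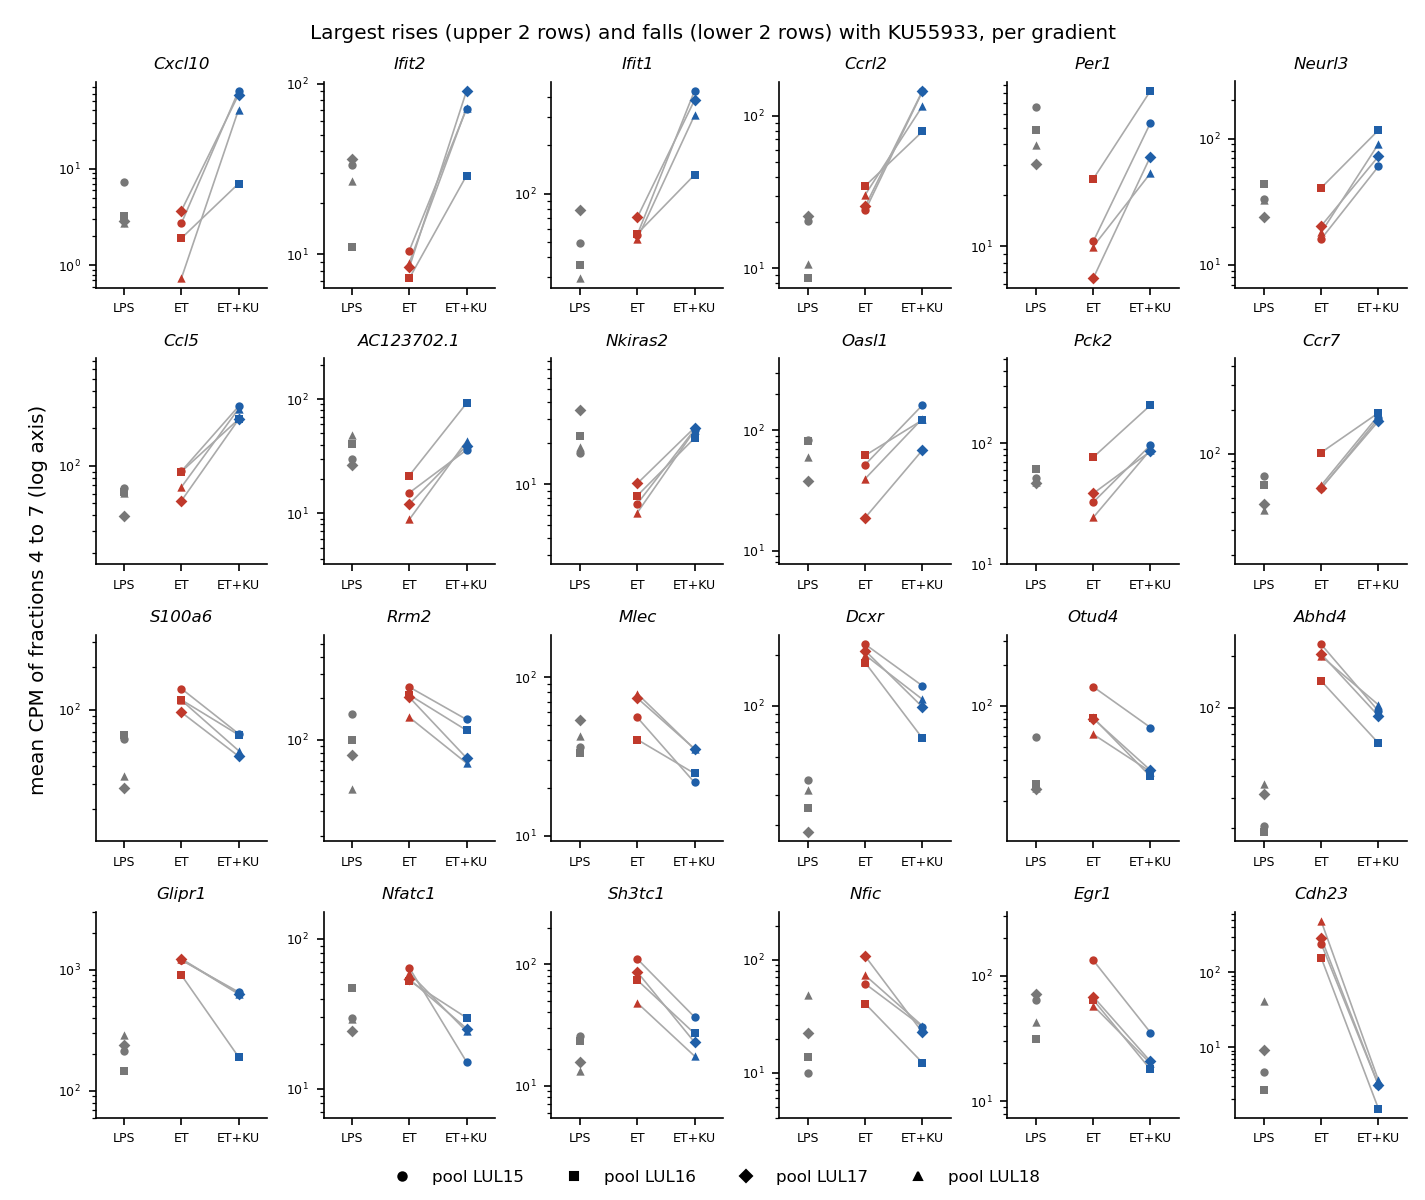
Points give the level (CPM, log axis) of the 12 largest rises and 12 largest falls in each gradient, coloured by treatment (LPS, LPS+ET, LPS+ET+KU). Cxcl10 spans 0.731 to 3.67 CPM after etoposide and 7.00 to 63.9 CPM with the inhibitor, and Cdh23 spans 157 to 486 CPM and 1.51 to 3.62 CPM.

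Cdh23, a cadherin of the hair cells of the inner ear, had the largest difference of all (ENSMUSG00000012819, chromosome 10, 60302747 to 60696489, minus strand). It stood at 242, 157, 289 and 486 CPM after etoposide, at 3.11, 1.51, 3.12 and 3.62 CPM with the inhibitor and at 14.6 ± 18.4 CPM with LPS. The log2 difference was -6.18 ± 0.37 (SE, adjusted p = 3.89e-07, limma), from 197 to 870 counts against 7 to 17. The counted site, at 60445832, lay in an intron, 68966 bases from the end of the transcript. Along the etoposide gradients the counts rose and fell between neighbouring fractions in the same way in all 4 pools, with 0 to 2 counts in fraction 5, at least 81 in fraction 6, 109 to 470 in fraction 7, 0 to 7 in fraction 10 and 131 to 1435 in fraction 11. In the inhibitor gradients the highest counts were in fraction 10, with 31 to 106, against 1 to 5 in fraction 11. The part of the intronic site and of single fraction libraries in this difference was not tested.

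Of the mRNAs the study follows, none was called by limma with all 12 gradients, which does not show that they were alike. Trp53, the p53 mRNA, averaged 85.0 ± 34.02 CPM after etoposide and 96.8 ± 14.1 CPM with the inhibitor (log2 difference 0.26 ± 0.17 SE). Hif1a, the oxygen-sensing transcription factor, averaged 156 ± 68.8 and 102 ± 40.5 CPM and was lower in all 4 pools (log2 difference -0.60 ± 0.16 SE, adjusted p = 0.0582, limma). It was called lower by edgeR with the block (adjusted p = 0.00102), by DESeq2, in the fit of the 8 compared gradients and without samples under 100000 counts. H2-K1, an MHC class I heavy chain, averaged 916 ± 379 and 1296 ± 697 CPM (0.45 ± 0.18 SE on the log2 scale), and was called higher in the fit of the 8 compared gradients alone (adjusted p = 0.000272, limma). The RNA-binding protein mRNA Tia1 averaged 20.0 ± 4.19 and 25.6 ± 1.08 CPM, with a log2 difference of 0.36 ± 0.23 that was -0.042 without fraction 4. Its relative Tial1 averaged 33.6 and 37.4 CPM, with a log2 difference of 0.12 ± 0.20 that was -0.068 by edgeR with the block. Gadd45a, a p53-driven stress protein, averaged 5.08 ± 4.07 and 5.08 ± 2.49 CPM, with a sign that changed with the gradients left out. The inhibited kinase itself, Atm, averaged 20.9 ± 6.26 and 23.3 ± 6.65 CPM, a log2 difference of 0.15 ± 0.28 (SE). KU55933 acts on the kinase protein, so the level of this mRNA is no check of the inhibition.

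Several large groups had medians near that of all tested genes and no call by limma at 0.01. Over all 8824 tested genes, 1466 had an unadjusted p under 0.05, and the counts of the groups stand against that share. The 69 tested cytosolic ribosomal protein genes had a median of -0.03 and the 68 mitochondrial ribosomal protein genes -0.01, with 11 and 9 genes at an unadjusted p under 0.05, and edgeR called 4 of the former lower and 0 of the latter. The 35 proteasome genes had a median of -0.04, with 8 at an unadjusted p under 0.05 and 1 higher and 1 lower by edgeR. The 33 endoplasmic reticulum genes (most abundant Manf and Ssr4) had -0.05, with 2 at an unadjusted p under 0.05 and 1 lower by edgeR, and the 29 Myc and nucleolar genes (Npm1 and Ncl) had -0.04, with 4 and 1 higher by edgeR. The 30 genes of double-strand break repair (Parp1 and Rad52) had a median of 0.01 and the 20 BCL2 family genes (Mcl1 and Bcl2) 0.02, with 0 and 2 at an unadjusted p under 0.05 and 0 calls by edgeR in both.

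Other groups without a call by limma lay further from that median. Their counts at an unadjusted p under 0.05 also stand against 1466 of all 8824 tested genes. The 45 tested genes of G2 and M phase, their most abundant members being Top2a and Cenpa, had a median of -0.22 with 10 positive and 9 at an unadjusted p under 0.05, and edgeR called 1 higher (Cenpa) and 2 lower (Hmmr and Cdk1). The 21 tested NF-kB genes (Nfkbia and Nfkbib) had a median of 0.23 with 15 positive and 8 at an unadjusted p under 0.05, and edgeR called 1 higher and 1 lower. Immunoglobulin genes (Igkc and Ighm, 8 tested) had a median of 0.35 with 1 higher by edgeR, cholesterol synthesis (Fdps and Pmvk, 22) 0.17 with 0, glycolysis (Aldoa and Pkm, 21) 0.14 with 3 lower, RNA granule proteins (Zfp36 and Ybx1, 27) -0.07 with 1 higher and 1 lower, and the CCT chaperonin (8) 0.09 with 0. The 7 mitochondrially encoded mRNAs had a median of -0.20 and 0 calls by edgeR. Their median was 0.04, -1.45, 0.28 and -0.13 in pools LUL15 to LUL18, and the part of pool LUL16, where it was lowest, in the other results was not tested beyond leaving out its gradients. Of 51 histone genes 7 passed the filter, with a median of 0.92 and 4 at an unadjusted p under 0.05, and edgeR called 2 of them higher, Hist3h2a (adjusted p = 0.00122) and Hist1h4i (adjusted p = 0.00265). Of 27 myeloid marker genes 11 passed, with a median of 0.11, 0 at an unadjusted p under 0.05 and 0 calls by edgeR.

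**Figure D3:**
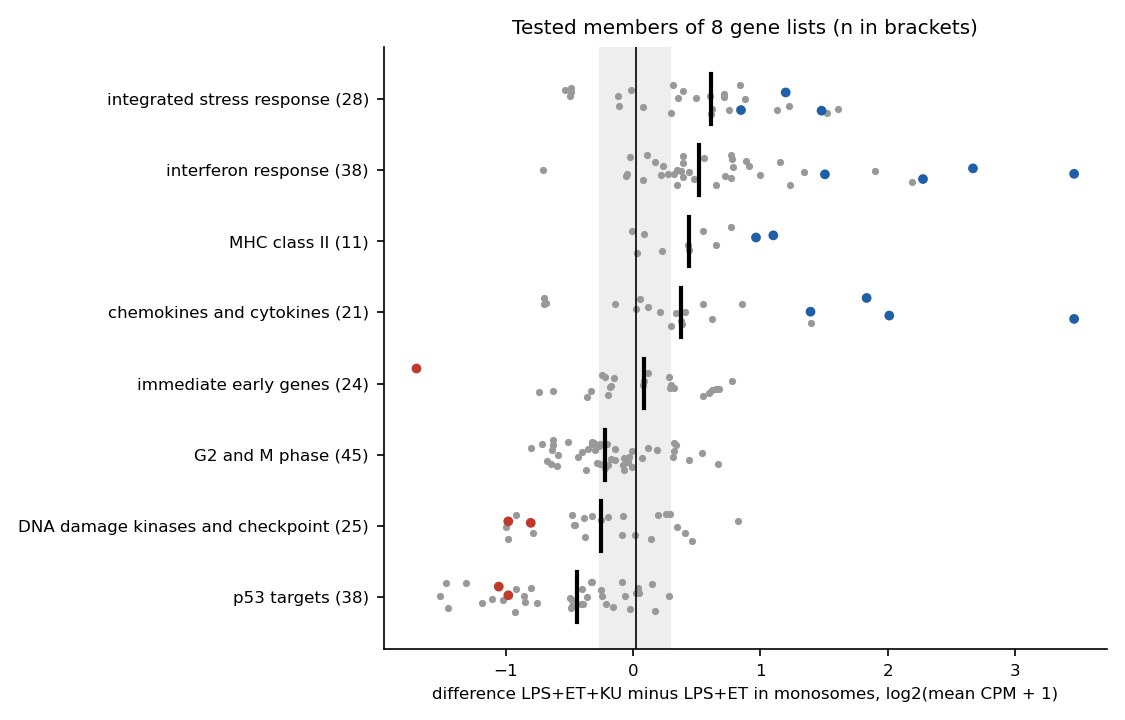
Each point is a tested gene of 1 of 8 lists, with its log2 difference, LPS+ET+KU minus LPS+ET, on the x axis a black bar at the list median, and called genes in blue (higher) or red (lower). The grey band holds the middle 50% of all tested genes, and the interferon-response median of 0.52 and the p53 target median of -0.44 lie on opposite sides of the line at 0.02.

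The levels before damage stand beside these differences. LPS+ET lay below LPS for 40 of the 47 rises, with a median log2 difference of -0.60, and above LPS for all 19 falls, with a median of 1.36. LPS+ET+KU differed from LPS by a median of 0.44 for the rises and 0.08 for the falls. Both contrasts share gradients with the comparison that chose these genes, so these values only place the 3 treatments and are no separate evidence. Within the groups the order differed. Mdm2, Dcxr and Abhd4 stayed above their LPS level with the inhibitor, Egr1 and Irf4 went below it, Ifit1 and Ccl5 had an LPS level at or under that of LPS+ET, and Ly6e an LPS level above both etoposide groups.

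The genes were called on the average of fractions 4 to 7, so the values of these single fractions are a description and no separate evidence. Among the 66 called genes, 27 rises and 6 falls held in all 16 pairs of the same pool and fraction, among them Ifit1, Ifit2, Cxcl10, Ccl5, Oasl1, Dcxr and Rrm2. The share of all tested genes that did so was not computed. Some called genes went against their average in a fraction, such as H2-Ob in fraction 7 (log2 ratio of group means -0.14) and Cdh23 in fraction 5 (0.28). The log2 ratio of group means for Ifit1 was 1.57, 2.54, 2.81 and 2.60 in fractions 4, 5, 6 and 7. That of Mdm2 was -0.65, -0.55, -1.37 and -1.07, lower in 15 of 16 pairs. Glipr1 was lower in 13 of 16 pairs, with 0.08 in fraction 4 and -1.18, -1.49 and -1.29 in the fractions after it.

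The same treatments were then compared in polysomes, where an mRNA carries several ribosomes, by the same limma fit. In light polysomes, fractions 8 to 10, 468 of 8580 genes were called (5.45%), and in heavy polysomes, fractions 11 to 16, 181 of 8397 (2.16%). Of the 66 genes called in monosomes, all 66 were tested in light polysomes, where 63 had the same sign and 36 were called, and 65 were tested in heavy polysomes, where 60 had the same sign and 17 were called. The called rises had median log2 differences of 0.76 in light and 0.64 in heavy polysomes, and the called falls -0.83 and -0.77. The interferon-response list had medians of 0.70 in light and 0.74 in heavy polysomes, the stress-response list 0.67 and 0.75, and the p53 target list -0.53 and -0.31, against 0.09 and 0.06 for all genes tested in monosomes. The smaller values of the called genes concern genes chosen for a large difference in monosomes. The test of the difference between the classes called 0 of 8580 genes for monosomes against light polysomes (0%) and 0 of 8397 against heavy polysomes (0%), with 853 and 741 genes at an unadjusted p under 0.05. Calls of 0 do not show that the classes were alike. Depth was uneven in heavy polysomes. There the LPS+ET gradient of LUL16 held 54686, 33476, 1501250, 214005, 80915 and 63879 counts in fractions 11 to 16. LPS+ET of LUL15 held 51226 counts in fraction 16, and LPS+ET+KU of LUL15 held 60143 in fraction 15.

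**Figure D4:**
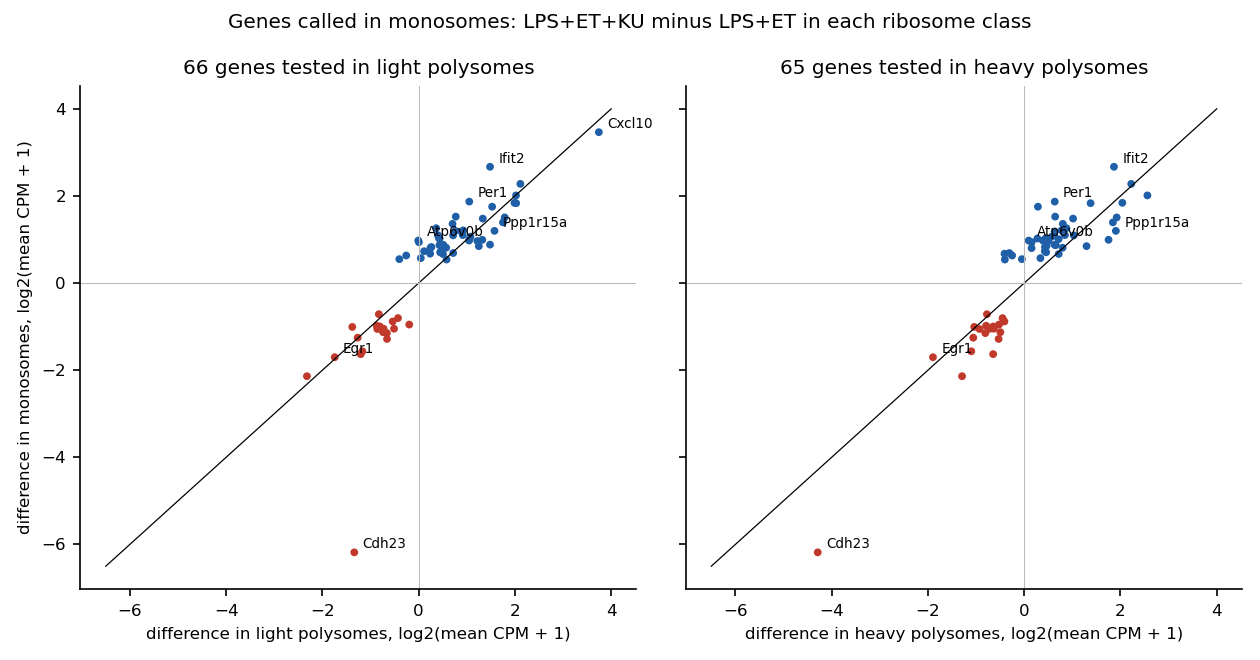
Each point is a gene called in monosomes, with its log2 difference, LPS+ET+KU minus LPS+ET, in light (66 genes) or heavy polysomes (65 genes) on the x axis and in monosomes on the y axis, rises in blue, falls in red and a line where both are equal. Of these, 63 and 60 have the same sign in both classes.

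Cxcl10 rose by 3.46 in monosomes and by 3.74 in light polysomes on the log2 scale. In heavy polysomes it was not tested, since fewer than 4 gradients reached the 5 CPM of the filter. It stood there at 42.1, 4.75, 57.4 and 41.6 CPM with the inhibitor in LUL15 to LUL18 and at 1.59 to 2.42 CPM after etoposide. Ccl5 had differences of 2.03 in light and 1.38 in heavy polysomes, and Ccrl2 one of 2.56 in heavy polysomes. Ifit2 had 2.67 in monosomes, 1.48 in light and 1.87 in heavy polysomes, and the monosome difference exceeded the light one by 1.19 ± 0.23 (SE), which did not pass the adjustment (adjusted p = 0.227, limma). Egr1 fell by 1.74 in light and by 1.89 in heavy polysomes. Atp6v0b, a subunit of the proton pump of lysosomes that was named after its values were seen, had 0.98 in monosomes, -0.01 in light and 0.09 in heavy polysomes, and its difference between monosomes and light polysomes, 0.98 ± 0.19 (SE), did not pass either.

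The 4 called genes with the largest gap between monosomes and heavy polysomes were Cdh23, AC123702.1, Per1 and Fcrla. Cdh23 differed by -6.18 in monosomes, by -1.34 in light and by -4.29 in heavy polysomes. Per1 had 1.87 in monosomes, 1.05 in light and 0.63 in heavy polysomes, a gap to heavy of 1.24 ± 0.22 (SE, adjusted p = 0.33, limma). AC123702.1 had a gap of 1.47 and Fcrla, a B cell protein with Fc receptor-like domains whose counted site lay in an intron, one of 1.08. None of these 4 gaps passed the test.

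**Figure D5:**
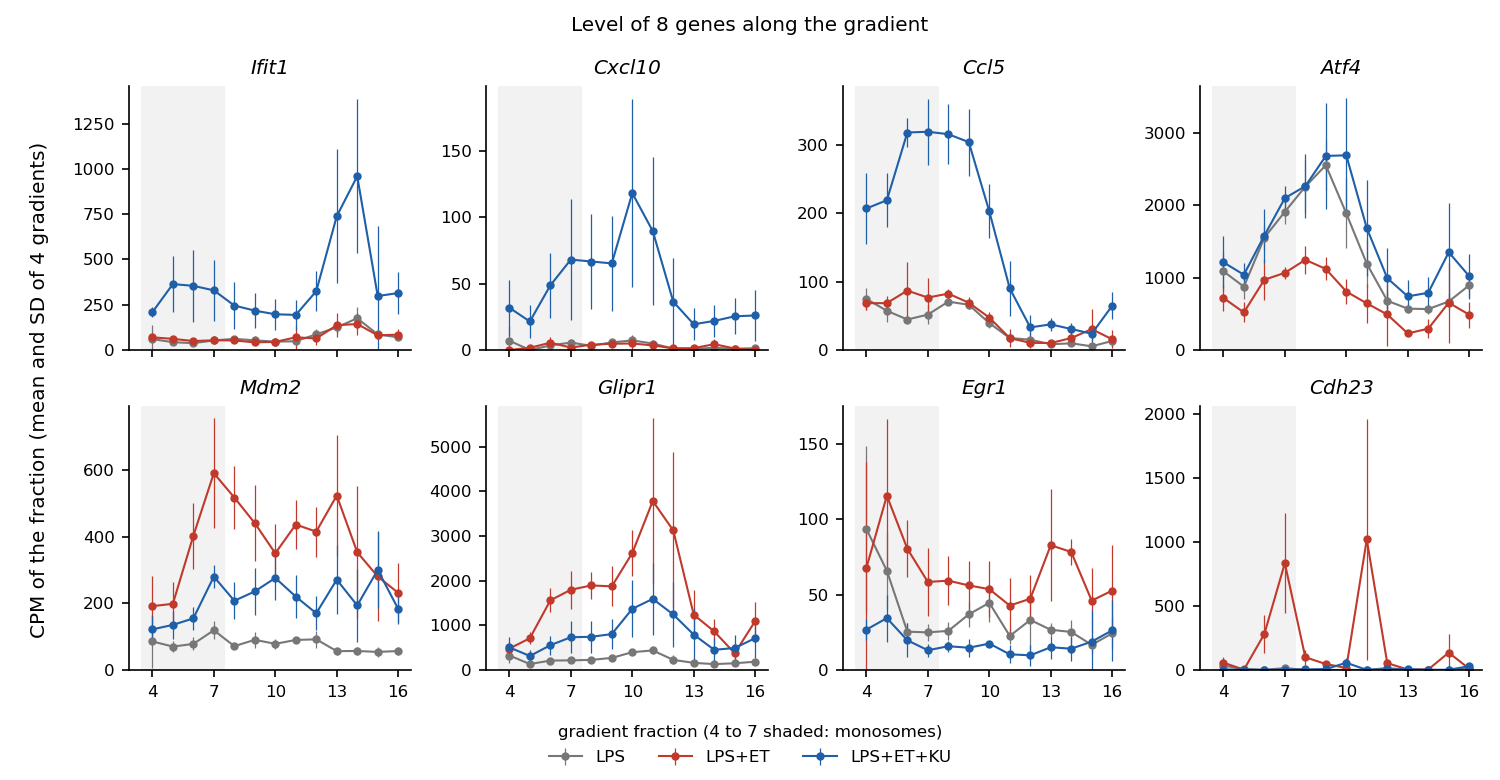
Lines give the mean level (CPM) of 8 genes in fractions 4 to 16 for LPS, LPS+ET and LPS+ET+KU, with bars for the SD of 4 gradients. Ifit1 and Ccl5 run higher with the inhibitor in the monosome fractions 4 to 7, Mdm2 and Egr1 run lower there, and Cdh23 has separate peaks in fractions 7 and 11 after etoposide.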

How the data were processed

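The authors reverse transcribed RNA of each fraction at equal concentration for 3′ end sequencing, removed PCR duplicates by random bases in the barcode, mapped the tags to GRCm38 and counted those at poly(A) sites for each Ensembl gene. The processing notes of the submitters name TopHat2 2.0.12, HTSeq and DESeq2 1.6.3. The deposited values are raw counts of 19600 genes. Of the 157 sample columns, 79 matched 1 labelled sample, and 78 matched a treatment and fraction only, so gradients are named by treatment and LUL tag. The study's methods call the gradients biological replicates.

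Each fraction sample was scaled to CPM and fractions 4 to 7 were averaged per gradient. Genes with at least 5 CPM and 10 counts in at least 4 of 12 gradients were tested with limma 3.58.1 (trend, robust) on log2 (CPM + 1) over all 12 gradients with the pool as a block, and called at a two-sided Benjamini-Hochberg adjusted p under 0.01. The tags used as pools stand in the column names, and their meaning is not given there. Deviations from treatment means correlated across genes at 0.190 to 0.733 within pools (12 of 12 over 0.1) and at -0.631 to 0.279 between pools (7 of 36 over 0.1). edgeR 4.0.16 and DESeq2 1.42.0 on summed counts, other filters, scalings, fractions and left-out gradients were alternatives, and thinning was added after seeing the data. Fits were tested on simulated data. Work was done in R 4.3.3 and Python 3.11.15.

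The comparison, the gene lists and the naming rule were chosen with earlier results of these data known. The rule took the 12 largest rises and 12 largest falls with at least 20 counts in each gradient of the higher group, up to 4 called members of each list or else its 2 most abundant, the mRNAs the study follows, and the 4 called genes with the largest gap to heavy polysomes. Sites were annotated with GENCODE M21: of 66 called genes, 52 were counted within 100 bases of their transcript's end and 4 in an intron. Whether the count used strand is not given in the sources used here. Promoter windows are RefSeq's. Some results are not reported here.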

Additional observations from a re-analysis of the deposited data

Results flagged for a closer look

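Single gradients stood apart from the other three of their group in 11 of 85 groups of 4 examined (12.9%), by Dixon's gap ratio, which chance exceeds in about 1 in 20 groups. Pool LUL16 was the one apart for AC123702.1 with the inhibitor (92.0 CPM, next 42.9), Pck2 with the inhibitor (208, next 96.7), Ccr7 after etoposide (102, next 60.7), H2-Ob after etoposide (183, next 87.8), and, on the low side, Glipr1 after etoposide (903, next 1199.9) and with the inhibitor (191, next 629.7). Pool LUL15 was apart for Mdm2 after etoposide (479.8 CPM, next 307), Otud4 with the inhibitor (69.2, next 33.6) and Egr1 after etoposide (132, next 68.0) and with the inhibitor (35.2, next 20.8). Pool LUL17 was apart for Irf4 with the inhibitor (73.5 CPM, next 62.4). For Glipr1 and Egr1 the same pool was apart in both groups, and all these genes kept their direction in each pool.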

How the results depend on the processing

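The 66 called genes kept their direction in the 24 alternatives tried, except that the stricter filter tested only 64 of them, without Cxcl10 and 1700003M07Rik. The number of calls in the monosome comparison, 66, was less stable. It was 2 without the pool block, 547 with the 8 compared gradients and the block, 16 without a filter on low values, 124 with a stricter filter, 255 at an adjusted p under 0.05, and 17 to 41 when a gradient was left out (LPS+ET of LUL15 to LUL18: 17, 33, 28 and 28; LPS+ET+KU: 24, 41, 19 and 24), where 16 of the 66 were called each time. edgeR called 499 with the replicate block and 21 without, and DESeq2 461 with it. Centring on the median gave 112 (87 higher, 25 lower), leaving out samples under 100000 counts 444, leaving out fraction 4 481 and leaving out fraction 7 18. Rises were 71.2% of the calls, but 59.3% with TMM factors, 77.7% with median centring, 83.1% with the mean of log2 CPM over the fractions (37 of 65 calls shared), 44.7% with edgeR and 43.0% with DESeq2; the mean of logs moved the median of all genes to 0.21. The stress-response median of 0.61 became 0.53 with a pseudocount of 5, 0.48 without a filter, 0.52 and 0.53 with edgeR with and without the block, 0.51 with DESeq2, 0.53 with TMM factors, 0.54 without fraction 4, 0.49 without fraction 7 and 0.49 to 0.70 with a gradient left out. It was above the interferon-response median of 0.52 as reported and below it with edgeR, DESeq2 (0.65 for the interferon list by both with the block) and without fraction 4 or 7. It was also below without LPS+ET of LUL17 (0.50 against 0.52) and without LPS+ET+KU of LUL16 (0.49 against 0.66). Without samples under 100000 counts, 1 gene passed the test of monosomes against light polysomes.

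Tia1 changed sign without fraction 4 (-0.042), Gadd45a without fraction 7 (-0.043) and with a gradient left out (-0.18 to 0.55), and Tial1 with edgeR with and without the block (-0.068 and -0.054), DESeq2 (-0.083), samples under 100000 counts left out (-0.079) and a gradient left out (-0.021 to 0.21). None of these was called. The cause of these changes was not tested. The lower depth of the LPS+ET gradients limits genes under about 5 CPM.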

Other observations

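Host RNAs of small nucleolar RNAs, which are spliced transcripts without a long coding region that often carry few ribosomes, were looked at after the values were seen. Of 10 such RNAs with deposited counts, 9 were tested, and the median log2 difference, LPS+ET+KU minus LPS+ET, was 0.81. All 9 differences were positive, against 52.3% of all tested genes. Of these, 3 were called higher in monosomes by limma with the pool block, against 0.533% of all tested genes. The 3 had been added to the list by name, and none of its tested Snhg genes or Gas5 was called. 1500012F01Rik rose from 2395 ± 169.5 to 4429 ± 774 CPM (SD, n = 4), with a log2 difference of 0.87. 2410006H16Rik rose from 1239.5 ± 460.4 to 2479.8 ± 843 CPM, with 1.01. AC025794.1, whose counted site lies within Snhg1, rose from 1417 ± 466 to 3015 ± 1079.8 CPM, with 1.07. Snhg5 (0.95, adjusted p = 0.0115), Snhg6 (0.81, adjusted p = 0.0143) and Gas5 (0.38, adjusted p = 0.0329) were higher in all 4 pools without reaching 0.01 by limma, while Snhg3 had 0.04 and Snhg9 0.05. The list was chosen for its values and carries no test.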
